A study of Homo sapiens with 4 samples.

Results

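The replication-dependent histone genes are the cluster genes that carry symbols beginning with HIST1H, HIST2H, HIST3H or HIST4H in the expression table. They were taken as every row with such a symbol, leaving out a symbol that ended in P or in P plus a digit. Of 58365 rows, 86 were kept, under 85 symbols, since HIST1H3D stands on 2 rows. They comprised 7 rows for the linker histone H1, 22 for H2A, 25 for H2B, 17 for H3 and 15 for H4. By the annotation, 14 of these rows are pseudogenes and 72 are protein coding.

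The cells were the H1 human embryonic stem cell line, an established line with no genetic change stated in the labels, sampled on day 2 of hematopoietic differentiation. All samples had received 40 ng/ml activin A and 50 ng/ml BMP4 in Custom mTeSR1 medium, as the labels give these doses, while the study's methods give them the other way round. In addition, 2 samples had received DMSO, the solvent control, and 2 had received IWP2, a compound that blocks Porcupine and so the secretion of Wnt proteins, at a dose the labels do not state. The comparison asks whether Wnt signaling is needed when pluripotent cells turn into mesoderm. The labels do not say that the 2 samples of a group came from separate cultures, so the spread between them may be technical.

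Core histones H2A, H2B, H3 and H4 form the octamer around which DNA is wound, and H1 binds the linker DNA between octamers. The cluster genes are transcribed in S phase, when newly copied DNA needs new histones, and their main mRNA ends at a stem-loop in place of a poly(A) tail. That stem-loop is bound by SLBP and cut free with the help of the U7 snRNP. A smaller share of transcripts of some cluster genes runs on to a downstream site and receives a poly(A) tail, and the libraries here were made with a kit that by its standard protocol selects poly(A) RNA. Levels given below are therefore of the RNA that entered such libraries, and no measure of the whole histone mRNA pool was taken.

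The stem-loop is shown first because it decides which end a histone transcript has. It was searched in the annotated transcripts as a stem of 6 base pairs that opens with GG around a loop of 4 bases that opens with TT, 16 bases in all. A transcript of 32 of the 85 histone rows with a transcript sequence held it, against 0.605% of 19684 protein-coding genes. In the longest transcript of each row, the form named A below stood in 18 rows, namely 6 of H2A, 8 of H2B and 4 of H3. Forms B and C stood in 5 and 3 rows, all of H4, and form D in 1 row of H2B and 2 of H3. The DNA letters are printed 5′ to 3′, with the paired stem in capitals and the loop in lower case.
Form A: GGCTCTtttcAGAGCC
Form B: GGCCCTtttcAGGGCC
Form C: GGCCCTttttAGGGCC
Form D: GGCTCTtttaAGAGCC
The forms differ in 1 base pair of the stem, in the last base of the loop, or in both. A row without a match may have an annotated transcript that stops before this element, so the absence is no statement about the gene itself.

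Most of the rows were low. In all 4 libraries 23 rows were listed at 0, of which 9 were pseudogenes and 14 protein coding. A mean of at least 0.5 FPKM (fragments per kilobase of transcript, scaled to the depth of the library) over the 4 libraries was reached by 31 rows, at least 1 FPKM by 13, at least 3 FPKM by 7 and at least 5 FPKM by 3. The 86 rows summed to 56.2 FPKM in DMSO 1, 92.9 in DMSO 2, 61.1 in IWP2 1 and 72.2 in IWP2 2, and groups of 4 values below keep this order. The rows HIST1H1C, HIST3H2A and HIST1H2BK together made 34.2% of the mean sum. For scale, 11 replacement histone genes were summed, variant genes that carry no cluster symbol and mostly give polyadenylated mRNA. Their sums were 2733, 2959, 2461 and 2629 FPKM in the same order of libraries.

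The depth behind these levels could be read from the table. FPKM values of single-exon genes were whole multiples of 1 fragment, within 0.05 fragments, for 94.7% to 95.7% of values, which gave depths of about 22940000, 20620000, 25250000 and 21910000 fragments for DMSO 1, DMSO 2, IWP2 1 and IWP2 2. Of 65 single-exon histone rows, 59 were whole in all 4 libraries at this tolerance and 61 with a tolerance widened in proportion to the count for high counts, and these 61 rows held 382, 526, 517 and 506 fragments. Of these 61 rows 19 had none, 23 had 1 to 10 in all libraries together and 19 had more than 10. In a gene as short as HIST1H3F, 1 fragment was worth 0.284, 0.368, 0.258 and 0.327 FPKM. A count of 0 there allows up to 3 fragments, or 0.773 to 1.11 FPKM depending on the library. Intervals and limits of this kind cover counting error only.

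The DMSO libraries stood apart from each other for these genes. Of the 31 histone rows with a mean of at least 0.5 FPKM, 27 were higher in DMSO 2 than in DMSO 1, or 87.1%, against 49.9% of all 15980 genes at that level. IWP2 2 exceeded IWP2 1 in 18 of the 31 rows, or 58.1%, against 51.8% of all genes. Fragments over the 61 whole rows, scaled to 1000000 fragments of depth, were 16.7, 25.5, 20.5 and 23.1, with the lowest and the highest both in DMSO. Estimated mean fragment length was 259 bases in DMSO 1, 281 in DMSO 2, 258 in IWP2 1 and 273 in IWP2 2. RN7SK, an RNA without a poly(A) tail, was at 177, 12.8, 175 and 16.9 FPKM, and so lower in both libraries numbered 2. The part of fragment length, or of whatever lowered RN7SK, in the histone levels was not tested.

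Target genes of Wnt signaling differed between the same libraries. The Wnt target SP5 was at 53.2 and 47.0 FPKM in DMSO and at 0.379 and 0.363 FPKM in IWP2. Of 8 Wnt target genes 6 were lower in IWP2, as were 9 of 9 tested mesoderm genes and 4 of 5 tested endoderm genes, while 5 of 7 pluripotency genes were higher, against 7.35% of all genes lower and 5.81% higher. In bulk RNA, fewer cells of a type and less RNA per cell cannot be told apart. Of neuroectoderm genes 0 of 2 tested passed, though both had an unadjusted p under 0.05, and PAX6 was at 1.33, 0.646, 0.0838 and 0.0278 FPKM. Of blood and endothelial genes both tested, KDR and RUNX1, were lower in IWP2, and the blood genes GATA1 and PTPRC were at or near 0 in every library.

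IWP2 was compared with DMSO by limma on log2(FPKM + 1) over all 15980 genes with a mean of at least 0.5 FPKM, and p-values were adjusted by Benjamini-Hochberg over all of them. A gene was called at an adjusted p under 0.05. Of all genes 2104 were called, or 13.2%, with 929 higher (5.81%) and 1175 lower (7.35%). Of the 31 histone rows tested 0 were called, and 3 had an unadjusted p under 0.05, against 28.7% of all genes. Among the 8693 genes with means within the range of the tested histone rows, 12.2% were called. The lowest adjusted p of a histone row was 0.101 by limma.

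The differences had no common sign. Of 31 rows, 15 were on the positive and 16 on the negative side, with a median of −0.01 on the log2(FPKM + 1) scale, and −0.01 for all genes. The range was −0.94 to 0.65. The IWP2 libraries lay above both DMSO libraries in 5 rows and below both in 6, against 27.6% and 31.0% of all genes, and the groups overlapped in 20. The errors were wide: the median standard error was 0.28 for the histone rows, 0.15 for all genes and 0.18 for genes of like level. Missing the threshold therefore does not show that a row was alike in both groups, and the 95% intervals in the plot of differences give what these libraries allow.

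**Figure D1:**
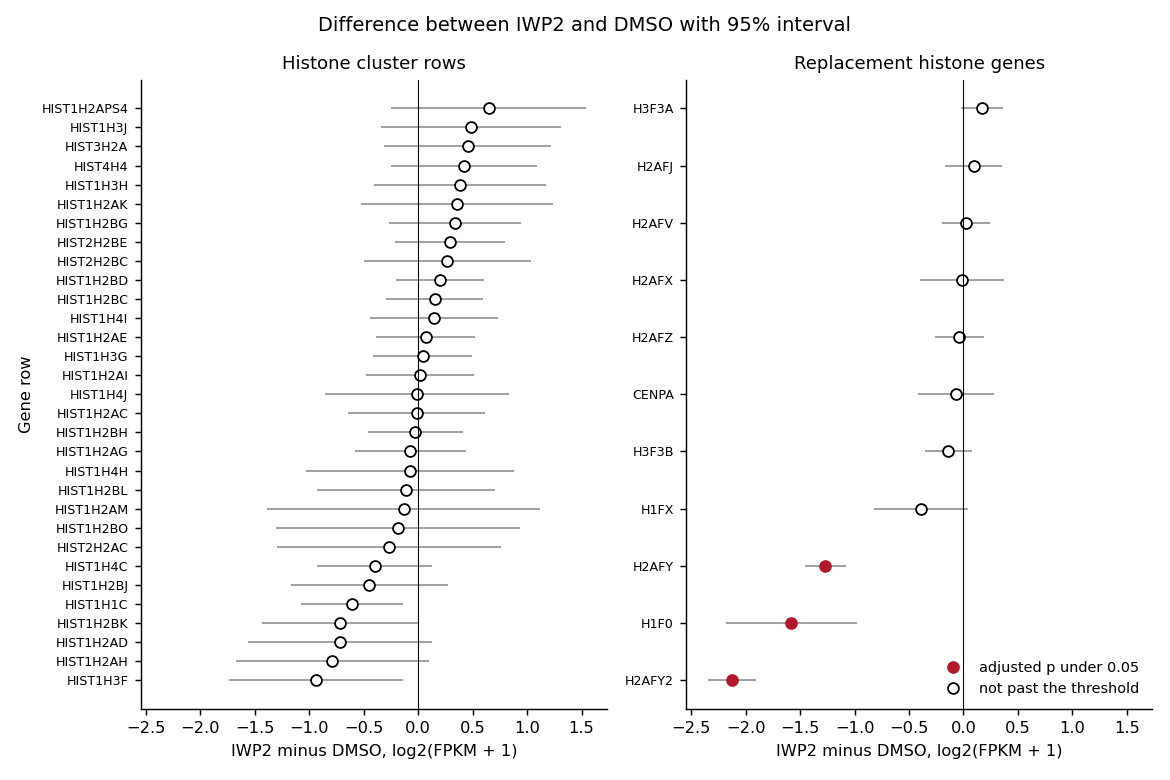
Difference between IWP2 and DMSO (x axis, log2(FPKM + 1), IWP2 minus DMSO) for the 31 tested histone cluster rows (left) and 11 replacement histone genes (right), each a point with its 95% interval from limma, 2 libraries a group. Filled points passed an adjusted p of 0.05: 0 cluster rows and the 3 replacement genes H2AFY2, H1F0 and H2AFY, all on the negative side.

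Linker histone H1 was carried by a single row. HIST1H1C, which encodes the subtype H1.2, is at chr6:26055787-26056428 on the minus strand (GRCh38). Its levels were 9.76 and 13.9 FPKM in DMSO and 7.62 and 7.02 FPKM in IWP2, from 86, 104, 74 and 57 fragments. Both IWP2 libraries lay below both DMSO libraries. The difference was −0.61 ± 0.18 (SE, n = 2 per group) with a 95% interval, not adjusted for the number of genes, of −1.08 to −0.14, and the adjusted p by limma was 0.101. The Poisson intervals of the fragments were 68.8 to 106 in DMSO 1, 85.0 to 126 in DMSO 2, and 58.1 to 92.9 and 43.2 to 73.9 in the IWP2 libraries. On these counts, not scaled to depth, DMSO 1 overlapped both IWP2 libraries, and DMSO 2 overlapped IWP2 1 but not IWP2 2. The depth was lowest in DMSO 2 and highest in IWP2 1, which brings their unscaled counts closer together. Scaled to 1000000 fragments of depth, the counts were 3.75 and 5.04 in DMSO and 2.93 and 2.60 in IWP2.

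The other H1 rows were near the limit of detection. HIST1H1E, which encodes H1.4, was at 0.264 and 0.205 FPKM in DMSO and 0.638 and 0 in IWP2. The pseudogene HIST1H1PS1 was at 0.138, 0.330, 0 and 0.151 FPKM. These values have no order by group. None of the 6 rows other than HIST1H1C reached the mean needed for a test, and 1 of them was at 0 throughout. HIST1H1C made 93.1% of the H1 sum, which was 10.3 and 14.7 FPKM in DMSO and 8.45 and 7.74 in IWP2, a log2 ratio of group means of −0.63. The ratio was −0.86 without DMSO 1 and −0.34 without DMSO 2.

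The H2A rows were led by HIST3H2A, a gene of the small cluster on chromosome 1 at chr1:228456979-228457873, minus strand. Its levels were 4.38 and 7.96 FPKM in DMSO and 7.02 and 10.3 in IWP2, from 64, 101, 113 and 141 fragments, the last being the highest count of any single-exon histone row. IWP2 1 lay between the DMSO libraries, so the groups overlapped. The difference was 0.46 ± 0.30 with an interval of −0.31 to 1.22 and an adjusted p by limma of 0.384.

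HIST2H2AC was at 4.93 and 4.35 FPKM in DMSO and at 2.08 and 6.12 in IWP2, the IWP2 libraries being the lowest and the highest. HIST1H2AM was at 0.965, 4.24, 2.43 and 1.49 FPKM, with both DMSO libraries outside the IWP2 range. Its row shares bases with HIST1H3J, and 84.0% of its 100-base windows stand in another gene's transcript, so its reads are uncertain. HIST1H2AC, one of the cluster genes known to give polyadenylated mRNA, was at 1.65, 2.72, 1.71 and 2.55 FPKM, with a difference of −0.02 and an interval of −0.64 to 0.61. In each of these genes the libraries of a group differed from each other by as much as the groups did.

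The 7 other tested H2A rows had means of 0.503 to 1.30 FPKM and differences of −0.79 to 0.65, with adjusted p from 0.215 to 0.972. Of the 11 untested rows 7 were at 0 in all libraries. The H2A rows summed to 16.3 and 28.7 FPKM in DMSO and 20.0 and 27.3 in IWP2, so that each group held a low and a high library. HIST3H2A made 32.1% of this sum. The log2 ratio of means was 0.07, and it was −0.28 without DMSO 1 and 0.54 without DMSO 2.

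HIST1H2BK led the H2B rows. It lies at chr6:27146418-27146798 on the minus strand and is another of the genes known to give polyadenylated mRNA. Its levels were 7.40 and 10.8 FPKM in DMSO and 3.83 and 6.60 in IWP2. Both IWP2 libraries lay below both DMSO libraries, but IWP2 2 was close to DMSO 1. The fragments behind these values were 21, 23, 12 and 16, with Poisson intervals of 13.0 to 32.1, 14.6 to 34.5, 6.20 to 21.0 and 9.15 to 26.0 that overlapped between the groups. The difference was −0.72 ± 0.28 with an adjusted p of 0.174 by limma.

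HIST1H2BD was at 3.01 and 2.94 FPKM in DMSO and 3.15 and 4.03 in IWP2. Both IWP2 libraries were above the DMSO libraries by a narrow margin, with a difference of 0.20, an interval of −0.21 to 0.61 and an adjusted p of 0.470 by limma. HIST1H2BJ was at 1.30, 2.59, 0.844 and 1.41 FPKM, and its groups overlapped. HIST2H2BE was at 0.360 and 0.658 FPKM in DMSO and 0.899 and 0.783 in IWP2, from 16, 26, 44 and 33 fragments. The IWP2 libraries of HIST2H2BE lay above both DMSO libraries, on the other side from HIST1H2BK, with a difference of 0.29 ± 0.20 and an adjusted p of 0.394 by limma.

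The 6 other tested H2B rows had means of 0.536 to 1.51 FPKM and differences of −0.19 to 0.33, and 6 of the 15 untested rows were at 0 throughout. The H2B sum was 17.3 and 26.6 FPKM in DMSO and 15.8 and 21.0 in IWP2, and the groups overlapped. The log2 ratio of means was −0.26 in FPKM and 0.16 in depth-scaled fragments of the single-exon rows, so the sign of the H2B ratio depended on the scale and on the rows. It was −0.53 without DMSO 1 and 0.09 without DMSO 2. The 5 genes known to give polyadenylated mRNA, HIST1H1C, HIST1H2AC, HIST1H2BD, HIST1H2BK and HIST2H2BE, were all tested by limma and 0 were called, against 13.2% of all genes. Among them 2 had an unadjusted p under 0.05, against 28.7% of all genes, and the median difference was −0.02. They summed to 22.2, 31.1, 17.2 and 21.0 FPKM.

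The H3 rows were low and rested on few fragments. HIST1H3F, at chr6:26250195-26250605 on the minus strand, was at 1.14 and 1.84 FPKM in DMSO and 0 and 0.653 in IWP2. Behind these values stood 4, 5, 0 and 2 fragments. Both IWP2 libraries lay below both DMSO libraries, and the difference of −0.94 ± 0.31 was the largest in size among the tested histone rows, with an interval of −1.74 to −0.14 and an adjusted p of 0.124 by limma. A count of 0 in IWP2 1 allows up to 0.773 FPKM for this gene.

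HIST1H3J was at 4.6e-07 and 0.736 FPKM in DMSO and 1.06 and 0.653 in IWP2. HIST1H3H was at 0.0445 and 0.811 FPKM in DMSO and 0.889 and 0.709 in IWP2, from 1, 16, 22 and 15 fragments. In both genes DMSO 1 alone was near 0, and the other 3 libraries lay close together. The remaining tested row of the class, HIST1H3G, had a mean of 0.549 FPKM and a difference of 0.04. The H3 sum was 4.43 and 6.33 FPKM in DMSO and 4.91 and 4.94 in IWP2, with both IWP2 libraries between the DMSO libraries. Its log2 ratio was −0.13 in FPKM, 0.22 in depth-scaled fragments of the single-exon rows and, in FPKM, −0.36 without DMSO 1 and 0.15 without DMSO 2.

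H4 rows came mainly from 2 genes. HIST1H4H was at 3.01 and 7.26 FPKM in DMSO and 5.29 and 3.72 in IWP2, and HIST1H4J at 3.01 and 6.09 in DMSO and 3.40 and 5.32 in IWP2. For both genes the DMSO libraries were the lowest and the highest of the 4. HIST1H4J had 8, 12, 10 and 12 fragments, and 77.7% of its windows stand in another gene's transcript. HIST4H4, the single gene of its cluster on chromosome 12, was at 0.508, 0.584, 1.58 and 0.665 FPKM, where IWP2 1 alone was far from the rest and the adjusted p was 0.362 by limma. The 2 other tested H4 rows had differences of −0.40 and 0.15.

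The H4 sum was 7.90 and 16.6 FPKM in DMSO and 11.9 and 11.2 in IWP2. HIST1H4H made 40.5% of it. Both IWP2 libraries lay between the DMSO libraries, and the log2 ratio was −0.08 with all libraries, −0.52 without DMSO 1 and 0.55 without DMSO 2. Over all 86 rows the ratio of summed FPKM was −0.16, −0.48 without DMSO 1 and 0.25 without DMSO 2, and without DMSO 2 the median difference of tested rows was 0.21. In the plot of class sums the DMSO libraries were farther apart than the group means in every class, though only slightly in H1.

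**Figure D2:**
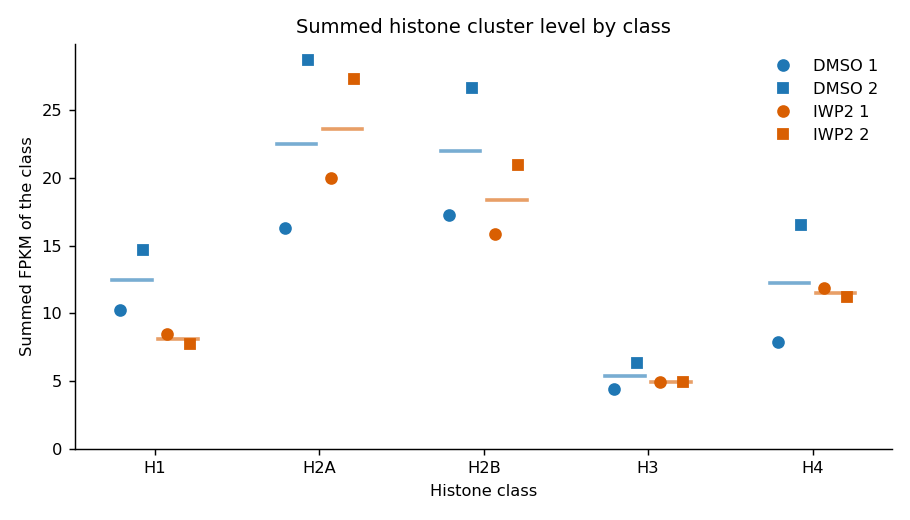
Summed FPKM of the histone rows of each class (y axis, from 0) in the 4 libraries, with circles for replicate 1, squares for replicate 2 and a bar at each group mean. In H2A, H3 and H4 both IWP2 libraries fall between the DMSO libraries, and in H1 both lie below them (8.45 and 7.74 against 10.3 and 14.7).

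**Figure D3:**
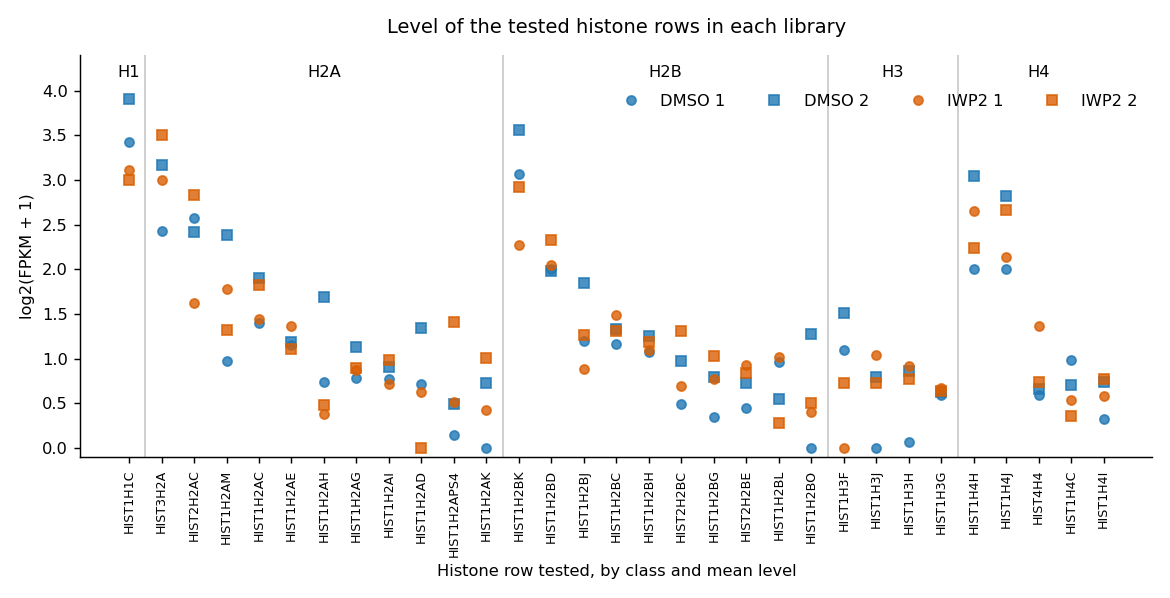
Level of each of the 31 tested histone rows in the 4 libraries (y axis, log2(FPKM + 1)), ordered by class and by mean level, with circles for replicate 1 and squares for replicate 2. HIST1H1C, HIST3H2A and HIST1H2BK lead their classes, and DMSO 2 is above DMSO 1 in 27 of the 31 rows.

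Testis histone genes served as genes that these cells should lack. HIST1H2AA and HIST1H2BA were at 0 in all libraries, HIST1H1T was at 0.111 FPKM in DMSO 2 and 0 elsewhere, and HIST3H3 was at 0.391 FPKM in DMSO 1 and 0 elsewhere. Values of this size, of 1 fragment in HIST1H1T and 2 in HIST3H3, thus also stood in genes that should be silent here. HIST1H2AJ, chosen here after its values were seen, illustrates the limit: it was at 0 in both DMSO libraries and at 0.914 and 0.784 FPKM in IWP2, from 3 and 2 fragments. Of its 100-base windows 80.9% stand in the transcript of another histone row, so its reads are uncertain. HIST1H2AJ was left out of the test by its mean. With no filter on low values its adjusted p by limma was 0.0496, and with values rescaled to the same sum in each library it was 0.0330. Both groups were at or under the limit of 3 fragments per library, so no fold is given.

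By position the rows fell into a few groups of neighbours. On chromosome 6, the group at chr6:25726132-26322292 held 42 rows and summed to 27.5 and 41.5 FPKM in DMSO and 28.8 and 28.7 in IWP2. The group at chr6:27125897-27893843 held 22 rows and summed to 17.0, 35.4, 18.6 and 22.9 FPKM. In both of them IWP2 libraries lay between the DMSO libraries. On chromosome 1, the 12 rows at chr1:149782689-149887916 summed to 5.84, 6.97, 4.78 and 9.03 FPKM, and the 4 HIST3 rows at chr1:228424845-228464626 to 5.35, 8.42, 7.32 and 10.9 FPKM. The 3 other HIST2 rows and the 2 pseudogene rows on chromosome 13 were at 0 in every library.

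Near-identical copies limit what single rows can say. Windows of 100 bases were compared only among the 85 histone rows with a transcript sequence, so sharing with other genes was not examined. In 59 rows no window was shared with another histone row. In 7 rows every window was shared, and 3 of these 7 were at 0 in all libraries. HIST2H3A and HIST2H3C have identical transcripts. A level of 0 in such a row is thus uncertain, because reads may have been assigned to the copy or left out. Overlap with any other row was found for 22 of the 86 rows and for 5 of the 31 tested, namely HIST1H2BD, HIST1H2AD, HIST1H3J, HIST1H2AK and HIST1H2AM. A read from shared bases may belong to either row. HIST1H2AM and HIST1H3J are both on the minus strand, as are HIST1H2AD and the HIST1H3D row it overlaps, so strand would not separate these pairs.

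The annotated gene model sets which part of a transcript was counted. For 33 rows the model held the coding part only, 8 ended within 100 bases after the stem-loop, 12 ran on past it, 5 had no stem-loop and 14 had several transcripts. The median of the mean levels was 0.219 FPKM for models with the coding part only, 0.398 for those that end near the stem-loop, 0.541 for those that run on past it and 0.551 for rows with several transcripts. The ranges overlapped widely, since HIST1H1C at 9.58 FPKM and HIST1H2BK at 7.16 have models with the coding part only, and HIST3H2A at 7.42 runs on past its stem-loop by 390 bases. The pseudogene rows had a median of 0. These levels are a description and carry no test.

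**Figure D4:**
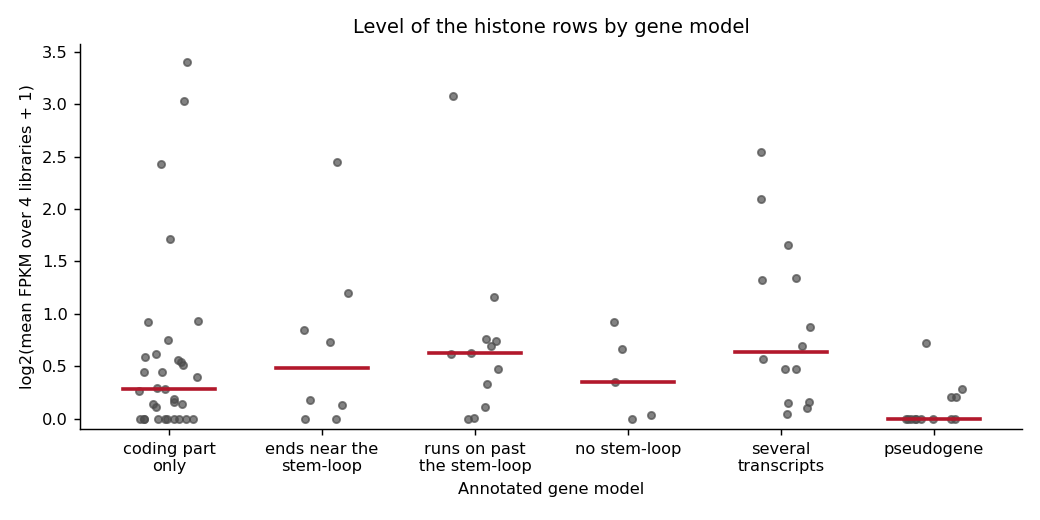
Mean level over the 4 libraries (y axis, log2(mean FPKM + 1)) of the 85 histone rows with an annotated transcript, by gene model, with a bar at each median. Medians run from 0 for pseudogenes and 0.219 FPKM for models with the coding part only to 0.551 FPKM for rows with several transcripts, and single rows above 7 FPKM stand in 2 of the groups.

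Promoters of the 3 rows of highest level are shown because histone promoters share short elements. They are from RefSeq on GRCh38.p14 and run from 250 bases before to 50 bases after the annotated start, on the gene's own strand. The letters CCAAT and TATAAA were searched on both strands and stand in capitals, so that a match on the other strand reads ATTGG or TTTATA, and adjoining matches may merge into 1 run.
HIST1H1C, chr6:26056421-26056720, minus strand: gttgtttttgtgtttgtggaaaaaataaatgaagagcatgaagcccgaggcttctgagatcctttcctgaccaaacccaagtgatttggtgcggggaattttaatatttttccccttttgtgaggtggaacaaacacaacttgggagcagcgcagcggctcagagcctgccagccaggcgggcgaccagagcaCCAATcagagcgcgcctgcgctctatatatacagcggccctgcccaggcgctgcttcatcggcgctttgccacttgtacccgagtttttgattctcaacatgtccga
HIST1H2BK, chr6:27146809-27147108, minus strand: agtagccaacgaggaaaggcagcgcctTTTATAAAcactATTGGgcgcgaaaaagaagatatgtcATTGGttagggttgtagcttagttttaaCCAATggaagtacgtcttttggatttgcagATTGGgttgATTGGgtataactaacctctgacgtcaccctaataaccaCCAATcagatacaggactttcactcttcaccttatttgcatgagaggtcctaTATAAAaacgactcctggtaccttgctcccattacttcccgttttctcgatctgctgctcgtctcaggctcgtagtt
HIST3H2A, chr1:228457824-228458123, minus strand: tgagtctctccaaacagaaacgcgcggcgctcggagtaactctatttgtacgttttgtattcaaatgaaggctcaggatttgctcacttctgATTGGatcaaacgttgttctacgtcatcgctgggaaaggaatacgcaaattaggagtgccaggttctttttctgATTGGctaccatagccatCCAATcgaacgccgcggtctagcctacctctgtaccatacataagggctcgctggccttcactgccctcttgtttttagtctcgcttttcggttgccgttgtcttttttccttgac
Of 62 coding histone promoters that could be matched, 52 held CCAAT, 42 held TATAAA and 36 held both. Among all 35116 promoters of the same length the shares were 34.6%, 11.5% and 4.58%. In HIST1H2BK a TATAAA began 27 bases before the start and CCAAT 79 bases before it, and HIST1H1C had CCAAT at 57 bases before the start. HIST1H1C and HIST3H2A had no TATAAA in this window, which says only that these letters are not there.

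The genes that make, process and carry histones showed 0 called differences. All 20 genes listed for histone transcription, 3′ end processing and mRNA decay were tested by limma. Of them 0 were called, against 13.2% of all genes, with 2 at an unadjusted p under 0.05, against 28.7%. The 2 were ZCCHC11 at −0.71 and SYMPK at 0.32. The median difference of the 20 genes was −0.01, as for all genes. Among them NPAT, the coactivator of histone transcription, was at 3.89, 5.16, 4.46 and 4.05 FPKM. SLBP, which binds the stem-loop, was at 40.5, 45.4, 38.7 and 42.8 FPKM. In both genes the groups overlapped. Of 16 histone chaperones 0 were called by limma, with 2 at an unadjusted p under 0.05, against the same shares of all genes. These 2 were UBN1 at −0.36 and CHAF1A at 0.39, and the median difference of the 16 was −0.03. NASP, which holds a soluble store of H3 and H4, was at 301, 360, 346 and 311 FPKM.

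Of 20 S phase genes 1 was called, against 13.2% of all genes. The called gene was higher in IWP2, against 5.81% of all genes called higher. An unadjusted p under 0.05 was held by 7 of the 20, against 28.7% of all genes. Of these 7, 5 were on the positive side and 2 on the negative, namely RRM1 at −0.37 and CCNA2 at −0.31. MCM3, a subunit of the replicative helicase, rose from 78.2 and 78.7 FPKM in DMSO to 106 and 101 in IWP2, a difference of 0.39 with an adjusted p of 0.0322 by limma. The median of the list was 0.08. PCNA, the sliding clamp of DNA replication, was at 124, 119, 129 and 141 FPKM, and the 2 IWP2 libraries were above those of DMSO without passing the test.

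Of the 11 replacement histone genes, all tested, 3 were lower in IWP2 and 0 higher, against 7.35% and 5.81% of all genes. H2AFY2 and H2AFY encode the macroH2A proteins, H2A forms with a large extra domain. H2AFY2 fell from 110 and 121 FPKM in DMSO to 25.4 and 25.9 in IWP2, a difference of −2.12 with an adjusted p of 0.000648 by limma. H2AFY fell from 156 and 160 FPKM to 64.1 and 65.8, a difference of −1.27 with an adjusted p of 0.00139 by limma. H1F0, which encodes the linker histone H1.0 of differentiating cells, fell from 45.9 and 73.4 FPKM to 17.2 and 20.5, a difference of −1.58 with an adjusted p of 0.0168 by limma. In all 3 genes both IWP2 libraries lay far below both DMSO libraries.

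The 8 other replacement genes did not pass. H3F3A and H3F3B, which encode the same H3.3 protein, were at 461, 451, 509 and 516 FPKM and at 805, 855, 736 and 770 FPKM. H2AFZ, which encodes H2A.Z, was at 630, 679, 617 and 658 FPKM, and its groups overlapped. H1FX, another linker histone gene, was at 156 and 202 FPKM in DMSO and 121 and 151 in IWP2, on the same side as H1F0 and HIST1H1C but with an adjusted p of 0.210 by limma. Whether the replacement genes as a group differed from the cluster genes was not tested.

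Of 12 other RNAs without a poly(A) tail 0 of the 8 tested rows were called by limma, against 13.2% of all genes. An unadjusted p under 0.05 was held by 1 of them, against 28.7% of all genes. The highest rows were RN7SL2, at 21616, 14335, 24423 and 21363 FPKM, and RN7SL1, at 12828, 9404, 15747 and 14205 FPKM. How far the libraries were selected for poly(A) RNA was not tested. For RN7SK, RMRP and RPPH1 the spread within a group was large. RMRP was at 104, 2.66, 104 and 11.5 FPKM on the higher of its 2 rows and RPPH1 at 28.1, 9.58, 29.9 and 3.43 FPKM. Like RN7SK, both were higher in the libraries numbered 1. SNORD3A, the row with an unadjusted p under 0.05, was at 1.78, 15.5, 32.3 and 26.1 FPKM. Between the DMSO libraries it thus differed in the same direction as most histone rows, and RN7SK, RMRP and RPPH1 in the opposite direction.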

How the data were processed

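Libraries were made from 4 samples with an Illumina TruSeq RNA kit. The authors deposited 1 table of FPKM values per gene, and the submitters' processing notes name BWA, Bowtie, RSEM and hg19, with no versions. In the table, however, 56511 of 58320 rows with coordinates had those of GENCODE v29 (GRCh38), so coordinates here are given as GRCh38. Column headings carry a minus or a plus sign before IWP2 and a number. They were read as samples without IWP2 (DMSO) and with it, and libraries are numbered as in the headings.

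Histone members and gene lists were chosen with earlier results of these data known. Genes named are the 3 rows of highest mean in each class, called rows and the genes of the lists. HIST1H2AJ, HIST1H3G and rows named for shared sequence or overlap were chosen after their values were seen.

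Values were tested as log2(FPKM + 1) with limma 3.58.1 in R 4.3.3 (two-sided, trend, no block, all 4 samples) for genes with a mean of at least 0.5 FPKM. The study gives no design for this comparison. With 2 samples against 2, an exact permutation test cannot go below p = 0.333, so none was run. Fragments were recovered by fitting depth, mean and SD of fragment length per library to single-exon genes of 300 to 3000 bases, leaving histone rows out. Poisson intervals are exact at 95%. Fitting steps were tested on simulated data. Current symbols and promoters came from RefSeq, and transcripts from GENCODE v29.

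Alternatives were another pseudocount (0.1 FPKM), no filter, a filter of 1 FPKM, rescaling each sample to the same sum (TPM), median ratio scaling, a replicate block, no trend and leaving out each sample. Leaving out pseudogene rows and using recovered fragments were added after seeing the data.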

Additional observations from a re-analysis of the deposited data

How the results depend on the processing

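Of 267 values recomputed under alternatives, 246 kept their side of the threshold, moved within the spread or, for counts of genes, stayed within a fixed factor. Named histone genes gave 159 of the 267, of which 158 kept their side. None of these genes was called with all libraries, so there was no call to reverse. A change of sign without a call counted as kept, as for HIST1H4H, from −0.08 to 0.44 without DMSO replicate 2. So did a change of sign within the spread, as for the H2B ratio, from −0.26 to 0.09 without DMSO replicate 2. The count therefore says little about the stability of single genes or of class ratios. With no filter on low values 118 genes were higher and 263 lower in IWP2. A histone row was called higher (1 row, HIST1H2AJ) with no filter and with rescaling to the same sum (TPM). With the replicate block 842 genes were higher and 1059 lower, and 1 histone row, HIST1H2BK, was called lower (adjusted p by limma 0.0382); the block changed no other call of a named histone gene. The labels do not say that a replicate number marks a shared culture or day. Over 15980 genes the replicate differences of the groups correlated at 0.142, with 2 pairs, and RN7SK and fragment length moved with the number in both groups. Leaving out each sample gave 41 to 369 genes higher and 138 to 580 lower, the fewest without IWP2 replicate 1, and 0 histone rows called in either direction; the lone sample of a group is then assumed to vary like the others. The median histone difference ranged from −0.057 to 0.21, and the log2 ratio of the summed FPKM from −0.48 to 0.25. By class it ranged from −0.86 to −0.34 for H1, −0.28 to 0.54 for H2A, −0.53 to 0.09 for H2B, −0.36 to 0.15 for H3 and −0.52 to 0.55 for H4. For the median, the total sum and each of the 5 classes, the value farthest from that with all libraries came without DMSO replicate 2. In recovered fragments scaled to depth the H2B ratio was 0.16 and the H3 ratio 0.22. Most single-exon histone rows rest on few fragments, and HIST3H2A and HIST1H1C on the most.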
